A study of Homo sapiens with 14 samples.

Results

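SAP30L and 9 accessory subunits of the SIN3 corepressor complex (SAP130, ING1, ING2, BRMS1, BRMS1L, ARID4A, ARID4B, FAM60A and MORF4L1) were followed by RNA-seq in MDA-MB-231 cells, a line derived from a triple-negative breast cancer. The 10 genes were found by their symbols among the 19410 genes of the expression table, and all 10 had a value in every library. The table held 14 libraries, 2 for each of 7 cell lines. These were the unedited parental cells, SAP30-KO1 and SAP30-KO2 (SAP30 knocked out), SIN3A+SIN3B-DKO1 and SIN3A+SIN3B-DKO2 (SIN3A and SIN3B knocked out together), and MLL1-KO1 and MLL1-KO2 (the histone methyltransferase gene MLL1, listed under the symbol MLL, knocked out). The edited lines were made with CRISPR/Cas9 from a lentiviral vector and selected with puromycin, and each is a mix of several expanded knockout clones. All were grown without further treatment, and the comparisons of the edited lines share their control, the 2 parental libraries. A change common to all edited lines therefore cannot be told apart from editing and selection, or from the level in those 2 libraries. Nothing in the labels says that the 2 libraries of a line came from separate cultures, so the p-values measure the spread between libraries, which may be technical. The question asked of these genes was whether paralogs and accessory subunits are expressed at other levels when SAP30, or SIN3A and SIN3B, are lost.

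The SIN3 complex is a corepressor assembled on the scaffold protein SIN3A or its paralog SIN3B. The scaffold is brought to genes by DNA-binding repressors such as the MAD proteins, and it carries the histone deacetylases HDAC1 and HDAC2, the histone chaperones RBBP4 and RBBP7, and SAP30, which bridges the scaffold and its partners. Around this core sit accessory subunits that differ between forms of the complex. Several are paralogs of each other, and SAP30L is the paralog of SAP30 and binds the same scaffold. ING1 and ING2 carry a PHD finger that reads methylated histone H3, ARID4A and ARID4B bind the retinoblastoma protein and chromatin, and BRMS1 is named for its suppression of metastasis in breast cancer cells.

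Each library held between 18415036 and 23162682 reads assigned to genes, as recovered from the steps of the deposited values, and the members had between 354 and 3825 reads in a library. Levels are given in TPM, a share of all transcripts which is scaled for gene length and can be compared between genes. VIM and CD44, marks of mesenchymal-like breast cancer cells, were between 5741 and 8805 TPM and between 267 and 611 TPM, whereas the estrogen receptor gene ESR1 reached at most 0.191 TPM. Of the other markers looked at, the lowest value of AXL, CAV1 and ZEB1 was 53.7 TPM. The highest of PGR and PTPRC was 0.603 TPM. PECAM1 was between 1.55 and 3.97 TPM, above the minimum of 1 TPM used for testing. CDH1 had a mean of 1.16 TPM in parental cells and was at most 0.282 TPM in the edited lines. SAP30 RNA was at 78.9 and 82.8 TPM in parental cells and between 2.75 and 4.96 TPM in the 4 SAP30-KO libraries. SIN3B was between 43.5 and 50.2 TPM in the libraries labelled SIN3A+SIN3B-DKO against 75.1 and 77.4 TPM in parental cells, but SIN3A was higher there, between 55.1 and 62.5 TPM against 43.1 and 45.4 TPM. The RNA level of SIN3A therefore does not bear out that label. RNA level does not measure protein, and the paper reports that its knockout cells were checked by immunoblot. For SAP30 knockout it also reports, from immunoblots, that other components of the SIN3 complex were not altered. The values below are of RNA only. Directions below are those of the libraries labelled SIN3A+SIN3B-DKO. MLL was between 15.8 and 27.7 TPM in the MLL1-KO libraries against 49.0 and 56.7 TPM in parental cells, and it was also between 23.0 and 35.4 TPM in the SAP30-KO libraries. The 51 tested genes around MLL on chromosome 11 were lower too, by a median of −0.96 and −0.41 on the log2 scale in MLL1-KO1 and MLL1-KO2, where MLL changed by −1.64 and −0.97, and by −0.89 and −0.85 in the SAP30-KO lines, where MLL changed by −0.95 and −0.65.

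Fold changes are on the scale of log2(TPM + 0.5), tested with limma over 13540 genes and adjusted by the Benjamini-Hochberg method. A gene is said to have risen or fallen where the adjusted p was under 0.05, and to be called where the change was also at least 1.5-fold. In bulk RNA, fewer cells that express a gene and less RNA per cell cannot be told apart.

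None of the 10 members was called in any genotype when the 2 lines of that genotype were averaged. In the same limma fits 15.5% of all tested genes were called in SAP30-KO, 14.3% in SIN3A+SIN3B-DKO and 22.5% in MLL1-KO. At an unadjusted p under 0.05 and with no fold minimum the members numbered 4, 5 and 7, and none of these reached 1.5-fold. With voom weights on the recovered reads 0, 0 and 1 were called. The share of all genes was not counted under these rules. The changes of the members were smaller and went in both directions. In SAP30-KO, 1 member fell (BRMS1) and 2 rose (SAP30L and BRMS1L), where 25.7% of all tested genes fell and 30.1% rose. In SIN3A+SIN3B-DKO, 1 fell (MORF4L1) and 4 rose (SAP30L, SAP130, BRMS1 and BRMS1L), where 27.9% fell and 29.1% rose. In MLL1-KO, 4 fell (SAP130, ARID4A, ARID4B and FAM60A) and 3 rose (SAP30L, ING2 and BRMS1), where 39.1% fell and 26.0% rose (31.1% and 34.6% with quantile normalization). The median size of the change, without its sign, was 0.11, 0.14 and 0.25 on the log2 scale over the 10 members, and 0.22, 0.23 and 0.29 over all genes tested. This comparison was not matched for level. In parental cells the members lay above between 35.6% (ING1) and 93.2% (MORF4L1) of the tested genes.

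**Figure D1:**
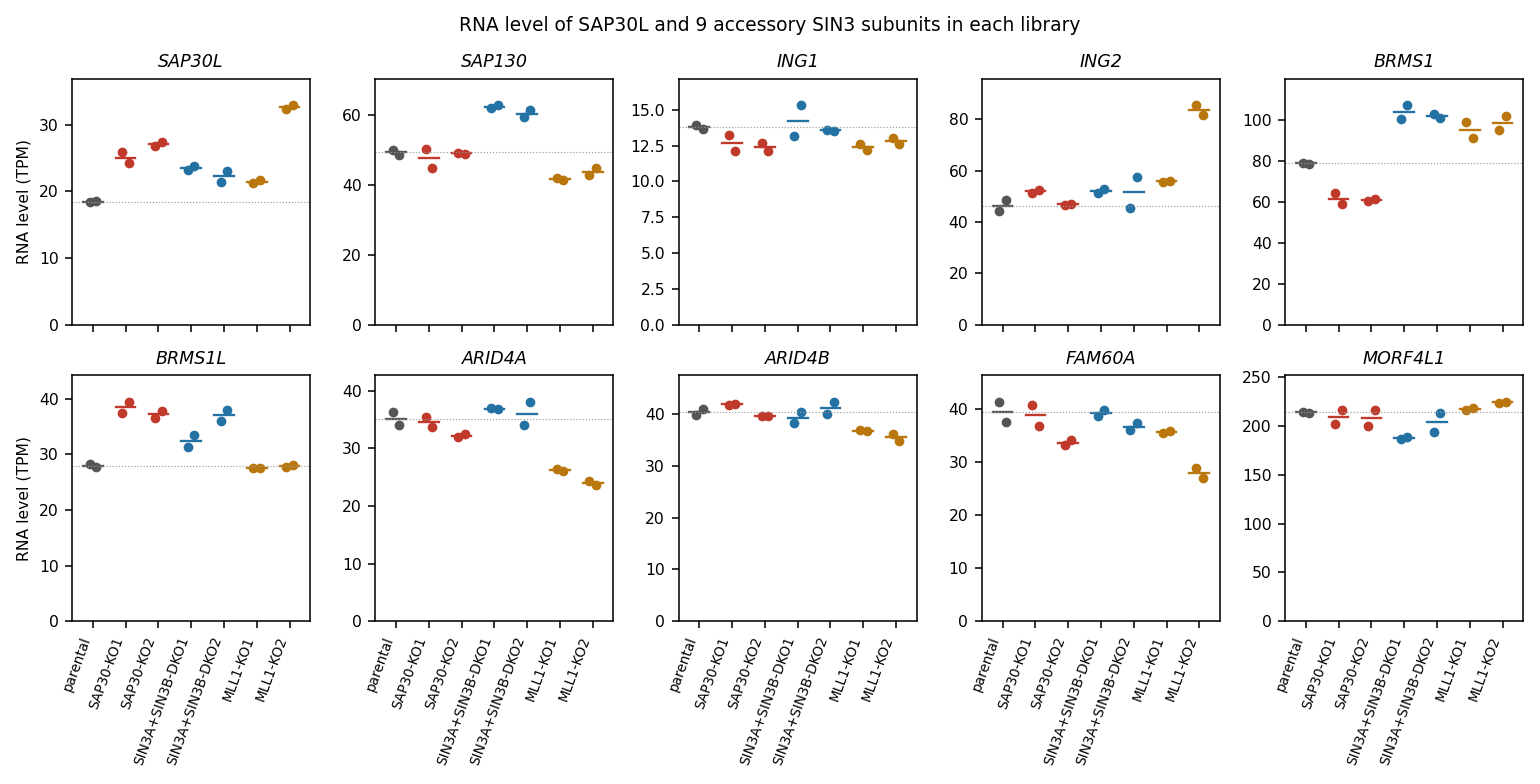
RNA level in TPM (vertical axis, from 0) of each of the 10 genes in the 7 cell lines (horizontal axis); points are the 2 libraries of a line, short bars their mean and the dotted line the parental mean. SAP30L lies above the parental level in all 12 edited libraries, BRMS1 lies below it in the SAP30-KO lines and above it elsewhere, and ARID4A is low in the MLL1-KO lines.

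SAP30L, at chr5:153825557-153840613 on the forward strand of GRCh37, was the member that rose in every edited line. It was at 18.4 and 18.6 TPM in the parental libraries. The SAP30-KO1 libraries had 25.9 and 24.3 TPM and the SAP30-KO2 libraries 26.8 and 27.5 TPM. All 4 lay above both parental libraries, and the rise was 1.41-fold over the pair of lines (log2 fold change 0.49, SE 0.05, adjusted p = 5.42e-06). The libraries labelled SIN3A+SIN3B-DKO had 23.2 and 23.8 TPM in line 1 and 21.4 and 23.1 TPM in line 2. These too lay above parental cells, by 1.24-fold (log2 fold change 0.30, SE 0.05, adjusted p = 0.00022).

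In the MLL1-KO lines SAP30L was uneven. MLL1-KO1 had 21.2 and 21.7 TPM, whereas MLL1-KO2 had 32.4 and 33.0 TPM, the highest level of any line. SAP30L was called in MLL1-KO2, at 1.77-fold (log2 fold change 0.81, adjusted p = 2e-07), where 10.2% of all tested genes were called higher. In MLL1-KO1 it rose 1.16-fold (log2 fold change 0.21, adjusted p = 0.00511), and the lines differed by 0.59 on the log2 scale (SE 0.05, adjusted p = 8.22e-06). Between the SAP30-KO lines the difference was −0.11 (95% interval −0.23 to 0.00, adjusted p = 0.388), and between the lines labelled SIN3A+SIN3B-DKO it was 0.08 (95% interval −0.04 to 0.19, adjusted p = 0.374). In order of mean level the lines ran MLL1-KO2, SAP30-KO2, SAP30-KO1, SIN3A+SIN3B-DKO1, SIN3A+SIN3B-DKO2, MLL1-KO1 and parental. The libraries of neighbours in that order overlapped only for SIN3A+SIN3B-DKO2 and MLL1-KO1. SAP30L was higher in SAP30-KO than in the libraries labelled SIN3A+SIN3B-DKO by 0.19 (SE 0.04, adjusted p = 0.00179), and the difference between MLL1-KO and SAP30-KO was 0.02 (95% interval −0.06 to 0.11, adjusted p = 0.611). That last difference became 0.13 with quantile normalization (adjusted p = 0.00677).

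The 51 tested genes around SAP30L on chromosome 5 had median log2 changes between −0.06 and 0.07 in the 6 lines, beside changes between 0.21 and 0.81 for SAP30L. When each line counted as 1 sample in place of 2 libraries, the SAP30L rise no longer passed the limma test in any genotype. The adjusted p was 0.263 in SAP30-KO, 0.475 in SIN3A+SIN3B-DKO and 0.188 in MLL1-KO. The spread is then that between the 2 lines of a genotype, pooled over all genotypes, so the SE was 0.24 in each. The 2 lines differed by −0.11 in SAP30-KO, 0.08 in SIN3A+SIN3B-DKO and −0.59 in MLL1-KO.

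The 250 bases before the annotated starts of SAP30L and BRMS1L are shown because these were the 2 members that rose in both SAP30-KO and the libraries labelled SIN3A+SIN3B-DKO with paralogs (SAP30 and BRMS1) that did not rise in SAP30-KO. The windows are those of a RefSeq promoter table and were each found once on their chromosome in GRCh37, at chr5:153825307-153825556 and chr14:36295294-36295543, both on the forward strand. Capitals mark matches, on either strand, to the CCAAT box (CCAAT) and the GC box (GGGCGG).
SAP30L: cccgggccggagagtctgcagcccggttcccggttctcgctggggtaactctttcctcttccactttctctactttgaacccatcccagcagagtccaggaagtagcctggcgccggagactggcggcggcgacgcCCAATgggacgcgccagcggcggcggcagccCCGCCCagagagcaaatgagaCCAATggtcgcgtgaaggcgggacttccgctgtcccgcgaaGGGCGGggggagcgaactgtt
BRMS1L: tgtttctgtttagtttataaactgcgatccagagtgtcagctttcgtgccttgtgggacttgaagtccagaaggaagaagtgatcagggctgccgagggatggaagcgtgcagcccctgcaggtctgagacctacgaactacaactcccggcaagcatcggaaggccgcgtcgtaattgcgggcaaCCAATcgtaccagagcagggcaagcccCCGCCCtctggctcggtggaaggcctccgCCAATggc
SAP30L held 2 matches to each motif, and BRMS1L held 2 to the CCAAT box and 1 to the GC box. The E-box CACGTG, the sequence bound by MAX and its MAD partners, had no match in these letters, nor in any of the 14 windows listed for the 10 members. Over all 35116 windows of the same length, 6.34% held the E-box, 32.0% the CCAAT box and 42.6% the GC box, while 6 and 11 of the 14 member windows held the last 2. The window of BRMS1 held none of the 3 motifs.

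Set beside SAP30 itself, SAP30L was the lesser paralog in unedited cells. It made up 18.6% ± 0.431 (SD, n = 2) of the summed SAP30 and SAP30L RNA in parental cells. In SAP30-KO1 and SAP30-KO2 it made up 88.0% ± 1.77 and 87.6% ± 4.61 (SD, n = 2 each). Most of that shift lay in the fall of SAP30, as the summed level went from 99.3 TPM to 28.5 and 31.0 TPM. SAP30L gained 7.63 TPM over the pair of lines while SAP30 lost 77.2 TPM, so the gain amounted to 9.88% of the loss. SAP30 itself did not pass the test in the libraries labelled SIN3A+SIN3B-DKO (log2 fold change −0.17, 95% interval −0.51 to 0.17). All of these, between 66.1 and 75.6 TPM, lay below both parental libraries, at 78.9 and 82.8 TPM. The SAP30L share in the lines labelled SIN3A+SIN3B-DKO was 23.99% and 24.4%. In MLL1-KO1 and MLL1-KO2 the share was 20.4% and 23.1%.

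**Figure D2:**
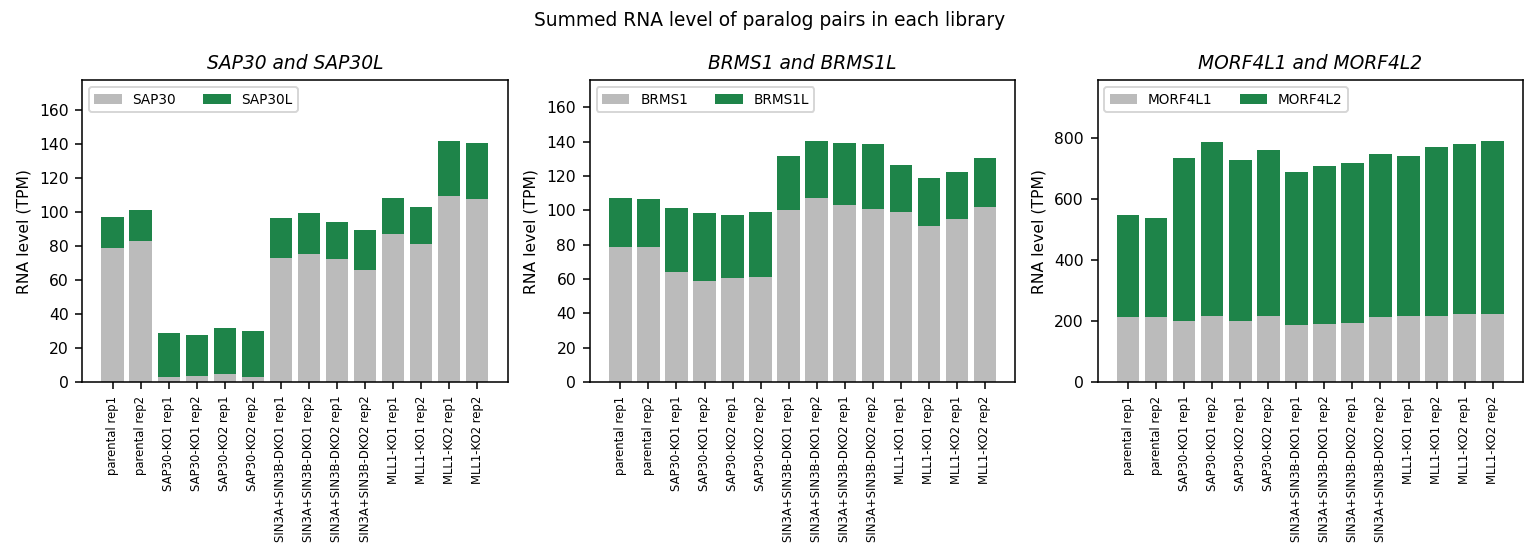
Stacked RNA level in TPM (vertical axis, from 0) of SAP30 with SAP30L, BRMS1 with BRMS1L, and MORF4L1 with MORF4L2 in each of the 14 libraries (horizontal axis); grey is the member named first and green its paralog. In the 4 SAP30-KO libraries the summed SAP30 and SAP30L level is between 28.0 and 31.8 TPM, against 97.3 and 101 TPM in parental cells, and MORF4L2 is higher in all 12 edited libraries.

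BRMS1, a metastasis suppressor, and its paralog BRMS1L moved in opposite directions in SAP30-KO. BRMS1, at chr11:66104804-66112596 on the reverse strand of GRCh37, was at 78.9 and 78.6 TPM in parental cells and at 64.0, 58.8, 60.5 and 61.3 TPM in the SAP30-KO libraries. It fell there by 0.36 on the log2 scale (SE 0.05, adjusted p = 7.58e-05), with every SAP30-KO library below parental. It rose in the libraries labelled SIN3A+SIN3B-DKO, which had between 100.4 and 107 TPM (log2 fold change 0.38, SE 0.05, adjusted p = 5.47e-05), and in MLL1-KO, with between 91.1 and 102 TPM (log2 fold change 0.29, SE 0.05, adjusted p = 0.000271). The difference between SAP30-KO and SIN3A+SIN3B-DKO was called, at −0.74 (SE 0.04, adjusted p = 1.17e-07), where 3.25% of all tested genes were called in that direction. So was the difference of MLL1-KO minus SAP30-KO, at 0.66 (SE 0.04, adjusted p = 7.2e-08, 6.34% of all genes). The 2 lines of a genotype differed by 0.01, 0.03 and −0.05 on the log2 scale for BRMS1, none past the test.

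The fall of BRMS1 in SAP30-KO was no larger than that of the genes around it. Its 51 neighbours on chromosome 11 had a median log2 change of −0.41 in SAP30-KO1 and −0.39 in SAP30-KO2, beside −0.36 and −0.37 for BRMS1. With the neighbours' median subtracted the BRMS1 change was 0.03 (SE 0.04, adjusted p = 0.522). In the other 4 lines the neighbours' medians were between 0.02 and 0.18, and BRMS1 kept its rise after subtraction. What moved the whole neighbourhood was not tested.

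BRMS1L, at chr14:36295544-36401531 on the forward strand, was at 28.3 and 27.7 TPM in parental cells. SAP30-KO1 had 37.4 and 39.5 TPM and SAP30-KO2 had 36.6 and 37.7 TPM. The rise was 1.35-fold (log2 fold change 0.43, SE 0.04, adjusted p = 8.69e-06). The libraries labelled SIN3A+SIN3B-DKO had 31.3, 33.5, 36.0 and 38.0 TPM, a rise of 1.24-fold (log2 fold change 0.30, SE 0.04, adjusted p = 0.000125). In MLL1-KO all libraries were between 27.5 and 28.2 TPM, and the change was −0.01 (95% interval −0.11 to 0.08). The neighbours of BRMS1L had also gone up, by a median of 0.31 and 0.22 in the SAP30-KO lines and of 0.18 and 0.24 in the lines labelled SIN3A+SIN3B-DKO. With these subtracted the BRMS1L rise was between 0.14 and 0.18 in the SAP30-KO lines, still past the test, but 0.09 in SIN3A+SIN3B-DKO (SE 0.04, adjusted p = 0.10). With each line as 1 sample it passed in neither genotype (adjusted p = 0.0696 and 0.150). BRMS1L made up 26.2% ± 0.204 (SD, n = 2) of the pair's RNA in parental cells, and 38.5% and 37.9% in the SAP30-KO lines. The summed level of the pair was 107 TPM in parental cells and 99.9 and 98.1 TPM in the SAP30-KO lines.

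**Figure D3:**
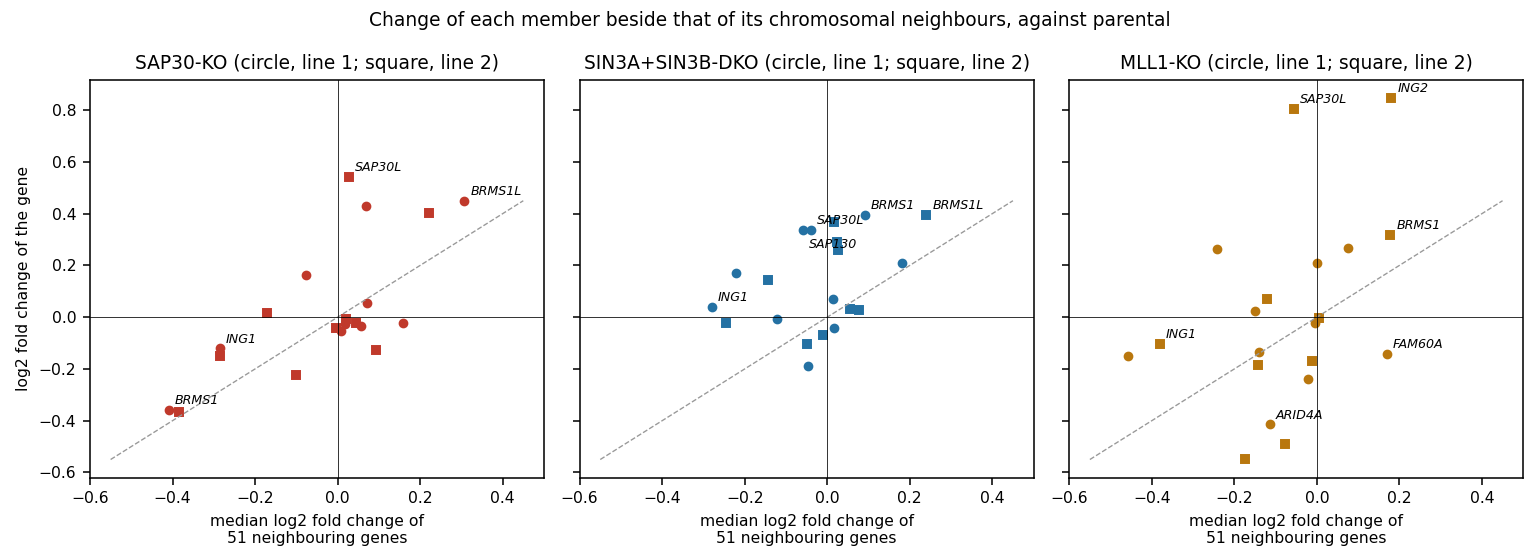
log2 fold change of each member against parental cells (vertical axis) plotted over the median log2 fold change of its 51 chromosomal neighbours (horizontal axis), with 1 panel per genotype, circles for line 1, squares for line 2 and the dashed line where both are equal; genes with a value beyond 0.24 on either axis are named. SAP30L lies above the dashed line in each edited line, with neighbours between −0.06 and 0.07 and its own change between 0.21 and 0.81. SAP130 and BRMS1 also lie above it in the SIN3A+SIN3B-DKO panel, whereas BRMS1 in the SAP30-KO lines lies on it.

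SAP130 and the ARID4 proteins are large subunits of the SIN3A form of the complex. SAP130, at chr2:128698791-128785694 on the reverse strand, was at 49.96 and 48.5 TPM in parental cells. It rose in the libraries labelled SIN3A+SIN3B-DKO, to 61.8, 62.7, 59.4 and 61.3 TPM, all above parental (log2 fold change 0.31, SE 0.05, adjusted p = 0.000155). In SAP30-KO, where values ran from 44.7 to 50.3 TPM and overlapped parental, the change was −0.03 (95% interval −0.13 to 0.07). In MLL1-KO it fell by 0.20 (SE 0.05, adjusted p = 0.00231), to between 41.4 and 44.7 TPM. Its neighbours on chromosome 2 had medians between −0.06 and 0.02. With each line as 1 sample neither change passed (adjusted p = 0.0757 and 0.132).

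ARID4A was the member with the largest fall in MLL1-KO. The gene lies at chr14:58765222-58840605 on the forward strand. It was at 36.3 and 34.0 TPM in parental cells, at 26.4 and 26.1 TPM in MLL1-KO1 and at 24.3 and 23.6 TPM in MLL1-KO2. It fell by 0.48 (SE 0.05, adjusted p = 7.91e-06), with no overlap with parental, and the neighbours' medians were −0.11 and −0.17 in these lines. ARID4A and BRMS1 were the 2 members whose MLL1-KO change still passed with each line as 1 sample. In SAP30-KO the ARID4A change was −0.07 (95% interval −0.18 to 0.04), and with the neighbours subtracted it passed the test at −0.20 (SE 0.04, adjusted p = 0.000885). It was 0.05 in SIN3A+SIN3B-DKO (95% interval −0.06 to 0.16). Its paralog ARID4B, at chr1:235294949-235491534 on the reverse strand, was between 34.9 and 42.4 TPM over all libraries. It fell by 0.16 in MLL1-KO (SE 0.04, adjusted p = 0.00355), which no longer passed with quantile normalization (adjusted p = 0.0607) and with the neighbours subtracted (adjusted p = 0.725). The ARID4B share of the pair was 53.5% in parental cells and 58.3% and 59.8% in the MLL1-KO lines.

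FAM60A, at chr12:31433518-31479992 on the reverse strand and now named SINHCAF for its binding to SIN3 and its deacetylases, was at 41.3 and 37.5 TPM in parental cells and was lowest in MLL1-KO2, at 28.9 and 26.9 TPM. It fell in MLL1-KO2 by 0.49 (SE 0.06, adjusted p = 4.31e-05) and in MLL1-KO as a whole by 0.32 (SE 0.05, adjusted p = 0.000361). MLL1-KO1, at 35.5 and 35.7 TPM, gave −0.14 (adjusted p = 0.0693). The difference between these lines was 0.35 (SE 0.06, adjusted p = 0.00115), but their neighbours differed as well, and with these subtracted it was 0.10 (adjusted p = 0.236). In SAP30-KO2 FAM60A fell by 0.22 (SE 0.06, adjusted p = 0.0113), which no longer passed when either parental replicate 1 or SAP30-KO2 replicate 1 was left out, and with the neighbours subtracted (adjusted p = 0.143).

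Among the histone readers, ING2 rose and its paralog ING1 did not pass against parental cells in any line. ING2, at chr4:184426211-184433582 on the forward strand, was at 44.1 and 48.6 TPM in parental cells, at 55.6 and 55.9 TPM in MLL1-KO1 and at 85.5 and 81.8 TPM in MLL1-KO2. Like SAP30L it was called only in MLL1-KO2, at 1.80-fold (log2 fold change 0.85, SE 0.09, adjusted p = 7.2e-06), the largest change of any member in any line. In MLL1-KO1 it rose by 0.27 (SE 0.09, adjusted p = 0.0205), which was lost when parental replicate 1 or either MLL1-KO1 library was left out. The lines differed by 0.58 (SE 0.09, adjusted p = 0.000309). The neighbours of ING2 on chromosome 4 also differed, with medians of −0.24 in MLL1-KO1 and 0.18 in MLL1-KO2, and with these subtracted the difference was 0.16 (adjusted p = 0.136). In SAP30-KO and SIN3A+SIN3B-DKO the ING2 libraries ran from 45.6 to 57.5 TPM and overlapped parental cells, and the changes were 0.09 (95% interval −0.07 to 0.25) and 0.16 (95% interval −0.01 to 0.32). The neighbours of ING2 had medians between −0.22 and −0.08 in these lines, and with them subtracted ING2 passed the test in SAP30-KO, at 0.21 (SE 0.07, adjusted p = 0.0238), and in SIN3A+SIN3B-DKO, at 0.34 (SE 0.07, adjusted p = 0.00167). ING1, at chr13:111365083-111375686 on the forward strand, ran from 12.1 to 15.3 TPM over the 14 libraries, the lowest level of the 10 genes. Its neighbours on chromosome 13 had medians between −0.46 and −0.25 in the 6 lines, while the change of ING1 was between −0.15 and 0.04. With the neighbours subtracted ING1 passed the test in MLL1-KO, at 0.29 (SE 0.06, adjusted p = 0.00225), and in SIN3A+SIN3B-DKO, at 0.27 (SE 0.06, adjusted p = 0.00438).

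MORF4L1, at chr15:79102829-79190481 on the forward strand, encodes a chromodomain protein shared with histone acetyltransferase complexes and was the most abundant member, at 215 and 213 TPM in parental cells and between 186 and 225 TPM over all libraries. It fell by 0.13 in SIN3A+SIN3B-DKO (SE 0.04, adjusted p = 0.0246). It no longer passed when any of 4 libraries was left out (parental replicate 1 or 2, or replicate 1 of either line). With a library left out the change ran from −0.16 to −0.10. MORF4L1 also did not pass in limma with only the libraries compared (adjusted p = 0.0529) or with the neighbours subtracted (adjusted p = 0.089). The same held with each line as 1 sample. In MLL1-KO it passed only with median-ratio scaling or with the neighbours subtracted, at 0.12 and 0.18 (adjusted p = 0.0314 and 0.00574). Its paralog MORF4L2, which was not a member, moved much further. It was at 332 and 326 TPM in parental cells and between 503 and 571 TPM in the 12 edited libraries, and it was called in all 6 lines, with log2 fold changes between 0.64 and 0.77. Its neighbours on the X chromosome had medians between 0.43 and 0.83. The MORF4L2 share of the pair went from 60.6% in parental cells to between 71.2% and 73.2% in the edited lines.

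**Figure D4:**
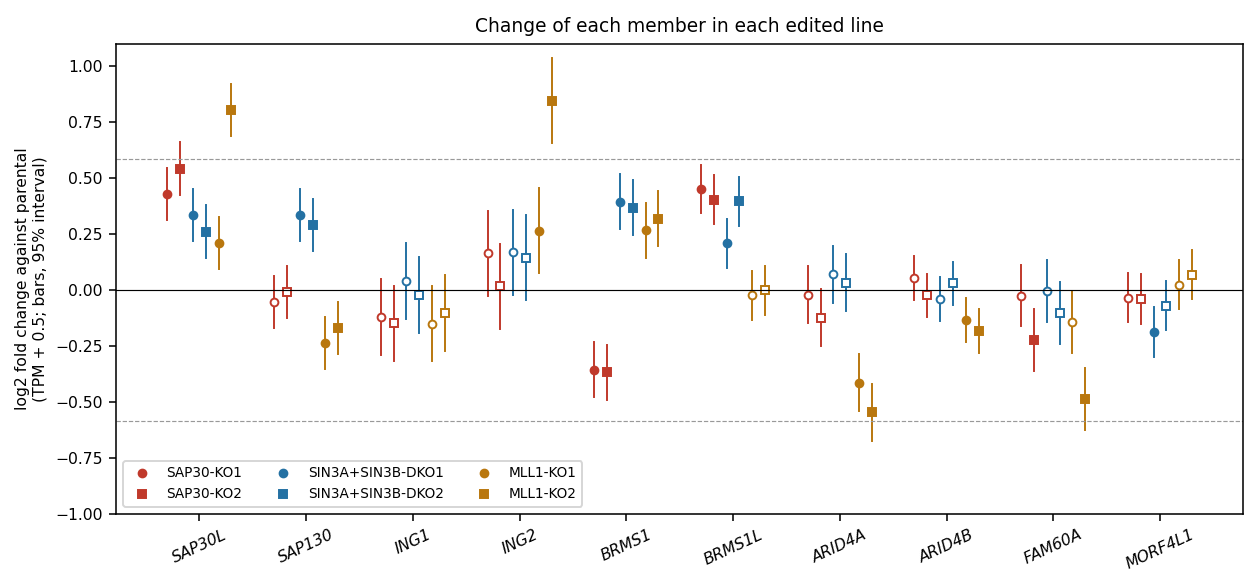
log2 fold change against parental cells (vertical axis) of the 10 members (horizontal axis) in the 6 edited lines; bars are 95% intervals, filled marks have an adjusted p under 0.05 and the dashed lines stand at 1.5-fold. Only SAP30L and ING2 in MLL1-KO2 pass both limits, at 0.81 and 0.85.

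The members were also compared between the lines of each genotype. Between SAP30-KO1 and SAP30-KO2 no member differed past the test in limma, 1 had an unadjusted p under 0.05, none passed with voom weights, and 0.524% of all tested genes differed. Between SIN3A+SIN3B-DKO1 and SIN3A+SIN3B-DKO2 it was 1 of 10 (BRMS1L, lower in line 1 by 0.19, SE 0.05, adjusted p = 0.0323), with 12.5% of all genes. Between MLL1-KO1 and MLL1-KO2 it was 3 of 10 (SAP30L, ING2 and FAM60A), with 42.1% of all genes.

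Compared with each other rather than with parental cells, SAP30-KO and the libraries labelled SIN3A+SIN3B-DKO differed in 6 of the 10 members, where 48.6% of all tested genes differed. SAP30L and BRMS1L were higher in SAP30-KO, and SAP130, BRMS1, ING1 and ARID4A were higher in SIN3A+SIN3B-DKO. The SAP130 difference was −0.34 (SE 0.04, adjusted p = 2.39e-05), whereas that of ING1 was small, at −0.14 (SE 0.05, adjusted p = 0.047, and up to 0.442 over the alternatives). MLL1-KO differed from SAP30-KO in 7 members and from SIN3A+SIN3B-DKO in 9, where the share of all genes was 67.8% in both. The largest of these beside BRMS1 were ARID4A against SIN3A+SIN3B-DKO, at −0.53 (SE 0.04, adjusted p = 5.57e-07), and SAP130 against SIN3A+SIN3B-DKO, at −0.52 (SE 0.04, adjusted p = 3.25e-07). With each line as 1 sample, 1 of the 6 differences between SAP30-KO and SIN3A+SIN3B-DKO still passed (BRMS1), 3 of the 7 between MLL1-KO and SAP30-KO (BRMS1, BRMS1L and ARID4A) and 2 of the 9 between MLL1-KO and SIN3A+SIN3B-DKO (SAP130 and ARID4A).

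The rest of the complex was read from 3 lists, beside which 25.7% of all tested genes fell and 30.1% rose in SAP30-KO, 27.9% and 29.1% in SIN3A+SIN3B-DKO, and 39.1% and 26.0% in MLL1-KO. Of 9 core subunits, 4 fell and 2 rose in SAP30-KO, 4 fell and 3 rose in SIN3A+SIN3B-DKO, and 5 fell and none rose in MLL1-KO. This list holds the edited genes SAP30, SIN3A and SIN3B, and of the 6 others 2 fell and 1 rose, 3 fell and 2 rose, and 5 fell and none rose. The called ones were SAP30 in SAP30-KO and SIN3B in SIN3A+SIN3B-DKO. The medians of all 9 were −0.07, −0.15 and −0.15 on the log2 scale, beside 0.02, 0.00 and −0.06 over all genes tested. Without the edited genes, the medians of the 6 others were −0.05, −0.08 and −0.21. Outside the naming rule, and chosen after its values were seen, RBBP4 fell in all 3 genotypes, by 0.40, 0.46 and 0.38, with all 12 edited libraries (32.1 to 37.3 TPM) below parental cells (46.6 and 45.2 TPM). HDAC1, chosen in the same way, rose by 0.41 in SAP30-KO and 0.32 in SIN3A+SIN3B-DKO and fell by 0.43 in MLL1-KO. Of 12 other SIN3-linked proteins and paralogs, 1 fell and 2 rose in SAP30-KO, none fell and 3 rose in SIN3A+SIN3B-DKO, and 3 fell and 7 rose in MLL1-KO, with medians of 0.01, 0.01 and 0.22. Of 9 DNA-binding factors that recruit SIN3, 2 fell and 3 rose in SAP30-KO, 1 fell and 3 rose in SIN3A+SIN3B-DKO, and 2 fell and 5 rose in MLL1-KO, with medians of 0.03, 0.07 and 0.21.

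Of all tested genes, those whose levels followed SAP30L most closely over the 14 libraries were C17orf62 (Pearson's r = 0.970), FGFRL1 (r = 0.965) and ASPSCR1 (r = 0.953). C17orf62, for example, was at 29.5 TPM in parental cells, 47.5 TPM in MLL1-KO2 and 31.5 TPM in MLL1-KO1. For ING2 they were LAMTOR3 (r = 0.969), MMP9 (r = 0.958) and MAPKAP1 (r = 0.958). MMP9, a secreted gelatinase, was listed at 0 in both parental libraries and had a mean of 3.45 TPM in MLL1-KO2. In the other edited lines its mean was at most 0.185 TPM, so its correlation with ING2 rests on MLL1-KO2. These values are descriptions over libraries that share lines and depth.

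How far reads could be mixed up between related genes was looked at in the annotated transcripts. No stretch of 50 bases was shared between SAP30 and SAP30L, BRMS1 and BRMS1L, ING1 and ING2, ARID4A and ARID4B, or MORF4L1 and MORF4L2. SAP30L, SAP130, ING2, BRMS1 and ARID4A shared none with any other gene. The other members shared between 5.19% and 14.7% of their stretches, ARID4B mostly with the overlapping gene RBM34, MORF4L1 mostly with its pseudogene MORF4L1P1 and FAM60A in part with its pseudogenes, so small differences of these 5 genes (ING1 and BRMS1L are the others) are the less certain.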

How the data were processed

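RNA-seq libraries (mRNA kit, short reads) were mapped and counted by the authors, whose processing notes name FastQC 0.11.2, TopHat, featureCounts and the hg19 build. The values the authors deposited are labelled RPKM, but each library sums to 1000000, so they were read as TPM. Whole reads could be recovered from the steps of the values for 18519 of 18519 genes above 0 (within 0.002 reads). Genes with at least 1 TPM in 2 libraries (13540) were tested with limma 3.58.1 (R 4.3.3, trended variance) on log2(TPM + 0.5), with a mean for each of the 7 lines over all 14 libraries, and p-values were adjusted by the Benjamini-Hochberg method within each comparison. Genotypes are the mean of 2 lines. Positions are from GENCODE on GRCh37, which 12924 of the tested genes matched. A running median of 51 genes described chromosomal neighbours. The named genes were the members, the edited genes, listed genes called in both lines of a genotype, and the 3 closest patterns for SAP30L and ING2. Members and lists were chosen with earlier results of these data known. Alternatives were other pseudocounts, filters, scalings, samples, a replicate block and voom. Guide sequences were not used here.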

Additional observations from a re-analysis of the deposited data

Results flagged for a closer look

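Differences between 2 lines of the same genotype passed for 4 results, each by a test of the difference itself. Of all tested genes, 42.1% differed between the MLL1-KO lines and 12.5% between the lines labelled SIN3A+SIN3B-DKO. SAP30L was lower in MLL1-KO1 than in MLL1-KO2 by 0.59 on the log2 scale (−0.59, adjusted p = 8.22e-06). ING2 differed between the same lines by −0.58 (adjusted p = 0.000309) and FAM60A by 0.35 (adjusted p = 0.00115). BRMS1L differed between SIN3A+SIN3B-DKO1 and SIN3A+SIN3B-DKO2 by −0.19 (adjusted p = 0.0323). With the median of the 51 neighbouring genes subtracted in each library, the ING2, FAM60A and BRMS1L differences no longer passed (−0.16, 0.10 and −0.13, adjusted p = 0.136, 0.236 and 0.124), while that of SAP30L did. MLL itself was at 17.4 and 15.8 TPM in MLL1-KO1 and at 25.7 and 27.7 TPM in MLL1-KO2, and its part in these differences was not tested.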

How the results depend on the processing

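Over 2160 recalculations of the members' values, 2002 stayed on their side of the threshold of adjusted p (86 of these, past it in neither fit, had the other sign), 93 no longer passed it, 54 newly passed it, and 11 that were past it in at least 1 of the fits changed sign. In SAP30-KO, the members that fell numbered 1, and 2 with quantile normalization and 3 with median-ratio scaling (1 to 2 with a library left out), and those that rose 2, 0 with each line as 1 sample and 3 with neighbouring genes subtracted, where ARID4A in place of BRMS1 was the member that fell and ING2 rose as well. In SIN3A+SIN3B-DKO those that fell numbered 1, and 0 with only the libraries compared, with line means or with neighbouring genes subtracted (0 to 1 with a library left out), and those that rose 4, 1 with line means and 5 with neighbours subtracted (ING1 and ING2 gained, BRMS1L lost). In MLL1-KO those that fell numbered 4, and 1 with line means, and those that rose 3, and 1 with line means and 5 with neighbours subtracted. Members called higher in MLL1-KO numbered 0, and 2 with quantile normalization, 1 with median-ratio scaling, with voom or with neighbours subtracted (0 to 1 with a library left out, 1 without parental replicate 2). With none of these alternatives, 7.58% of all tested genes were called higher in MLL1-KO, and that share was not counted under the alternatives. Without a fold minimum, 1 and 2, 1 and 4, and 4 and 3 members were lower and higher in the 3 genotypes. Of all tested genes, 39.1% fell and 26.0% rose in MLL1-KO. These shares were 31.1% and 34.6% with quantile normalization, and 33.1% and 32.2% with median-ratio scaling. In SAP30-KO 25.7% fell, and 26.7% and 28.8% with these scalings. Quantile normalization moved the median of all genes by 0.15 in MLL1-KO1. The total of recalculations includes many small alterations, such as other pseudocounts, and results that never passed. Of the results past the threshold, 52 of 70 stayed past it in the same direction with neighbours subtracted. The share that stayed was lowest with each line as 1 sample.

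The 11 changes of sign with a result past the threshold came from subtracting neighbours. They were BRMS1 in SAP30-KO (0.035), SAP30-KO1 (0.052) and SAP30-KO2 (0.017), ING1 in MLL1-KO (0.29), MLL1-KO1 (0.31), MLL1-KO2 (0.28) and SIN3A+SIN3B-DKO2 (0.22) and in MLL1-KO minus SIN3A+SIN3B-DKO (0.020), and ARID4B in MLL1-KO1 (0.0066) and in MLL1-KO minus SAP30-KO (0.028) and minus SIN3A+SIN3B-DKO (0.036). The cause was not tested.

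Replicate numbers did not pair the libraries: deviations of same-numbered libraries correlated between −0.073 and 0.0823 (mean 0.0149) over 21 pairs of lines. With a replicate block 68 of the 70 member results past the threshold, over 15 comparisons, still passed. The 2 that did not were of ING1, and 2 of MORF4L1 newly passed, all between genotypes.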

Other observations

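Beside the members, chosen after their values were seen, MXI1, which encodes a MAD-family repressor that recruits SIN3, rose in all 3 genotypes by 0.55, 0.55 and 0.63 on the log2 scale, with all 12 edited libraries (23.7 to 29.5 TPM) above parental cells (18.8 and 15.8 TPM). Its neighbours had medians between −0.24 and 0.02. Its relative MXD4 was called in MLL1-KO2 at 0.95, with 58.3 and 59.3 TPM against 31.2 and 29.1 TPM in parental cells, and was at 29.9 and 33.0 TPM in MLL1-KO1. MXD4 was also called in SAP30-KO2, at 0.59, and rose in SAP30-KO1 by 0.37, with between 37.5 and 46.9 TPM in these lines. Its neighbours had medians of 0.39 in MLL1-KO2 and of 0.37 and 0.36 in the SAP30-KO lines. ING5, a further ING-family histone reader, was at 5.99 and 6.56 TPM in MLL1-KO2 and between 9.95 and 12.2 TPM in every other library. Its change in MLL1-KO2 was −0.84, beside a median of −0.87 for its neighbours. C11orf30 (now EMSY), which like BRMS1 lies on chromosome 11, was at 34.2 and 32.5 TPM in parental cells and between 20.8 and 23.6 TPM in the SAP30-KO libraries. Its changes in these lines were −0.55 and −0.64, beside medians of −0.43 and −0.44 for its neighbours.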
